A study of Oryza sativa with 12 samples.

Results

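The comparison described here sets rice seedlings labelled as grp3/grp162 double mutant against the wild type ZH11, a japonica cultivar, after heat at 45 °C. It takes 6 of the 12 libraries of the series, 3 of the group written dm_45C and 3 of the group written WT_45C, chosen by their labelled genotype and temperature. The other 6 libraries (WT_29C and dm_29C) are the same genotypes kept at 29 °C. Their values stand beside the heat values, and they also enter the filter on low loci and the fit that sets the standard errors and adjusted p at 45 °C. All plants were grown at 29 °C in Kimura B solution, with 13 h of light a day and a humidity of 65%, and heat was given to seedlings 8 days old. The characteristics of the samples give 18 h of heat, the protocol for treatment 42 h, and the length is not settled here. RNA came from whole plants, and heat is the only treatment that the labels name.

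The mutant group was taken to carry knock-outs of GRP3 and GRP162. The sample titles write it only as grp_dm, and the genotype field changes the last number of the second gene with the replicate. How the alleles were made, and whether the line is 1 clone, were not stated in the sources used here. The mutant columns of the table use a code that no label explains, and they were taken as mutant because the wild type columns account for the rest. Nothing states that replicates came from separate cultures, so p-values measure the spread between these libraries.

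Glycine-rich RNA-binding proteins carry an RNA recognition motif and a glycine-rich tail, and in plants they bind transcripts and take part in splicing, export and translation under cold and other stress. Heat makes plant cells activate heat stress transcription factors, which switch on chaperones: the small heat shock proteins hold unfolding proteins, and HSP70, HSP90 and HSP100 refold or disaggregate them. A genotype comparison within the heat group asks whether plants lacking these RNA-binding proteins reach a different transcriptome after heat.

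Levels are in FPKM, a fragment number divided by transcript length and by the total of the library, and a difference is the mean log2(FPKM + 1) of dm_45C minus that of WT_45C, given with its standard error. The heat libraries were much alike. Correlations of log2(FPKM + 1) ran from 0.940 to 0.973 within WT_45C, from 0.932 to 0.943 within dm_45C and from 0.920 to 0.960 between them. Single libraries stood out in level: WT_45C replicate 3 was the lowest of the 6 at 35.4% of loci, dm_45C replicate 1 at 24.9%, and dm_45C replicate 2 was the highest at 28.6%. The first principal component of the heat libraries held 31.2% of the variance and did not separate the genotypes. The second held 27.1%, with WT_45C at -19.3, -40.6 and -1.04 and dm_45C at 57.8, -3.47 and 6.62. On it, only dm_45C replicate 2 lay among the wild type libraries. Heat itself is plain in the small heat shock protein gene HSP18.0, at 341 to 841 FPKM in the heat libraries against 10.8 to 26.3 at 29 °C. In whole plants, fewer cells of a type and less RNA per cell cannot be told apart.

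GRP3 (LOC_Os03g46770) measured 16274, 14427 and 16321 FPKM in WT_45C replicates 1 to 3, and 17604, 10888 and 14023 in dm_45C. The libraries labelled double mutant lie on both sides of the wild type values. The difference was -0.17 ± 0.525, with a 95% interval from -1.31 to 0.97 (limma adjusted p = 0.959, two-sided exact permutation p = 0.6, where 3 against 3 allows no p below 0.1).

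GRP162 (LOC_Os12g43600) measured 2368, 1605 and 3720 FPKM in WT_45C, and 12466, 746 and 699 in dm_45C. Replicates 2 and 3 of dm_45C lie below every wild type library, and replicate 1 lies above all of them, against its label. The same holds at 29 °C, where GRP162 measured 3288, 218 and 265 in dm_29C against 1002 to 1121 in WT_29C. GRP3 in dm_29C was at 4340, 1086 and 1355, so that replicate 1 alone lay within the WT_29C range of 3879 to 5489. The difference was -0.37 ± 1.09 (limma adjusted p = 0.956, exact permutation p = 0.9). Without replicate 1 of dm_45C it was -1.74, still not passing (limma adjusted p = 0.869). Without replicate 1 of both dm_45C and dm_29C it was also -1.74 and did not pass (limma adjusted p = 0.246). A knock-out allele need not lower its transcript, so these levels do not settle the genotype, and "libraries labelled double mutant" is meant wherever a mutant direction is given.

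**Figure D1:**
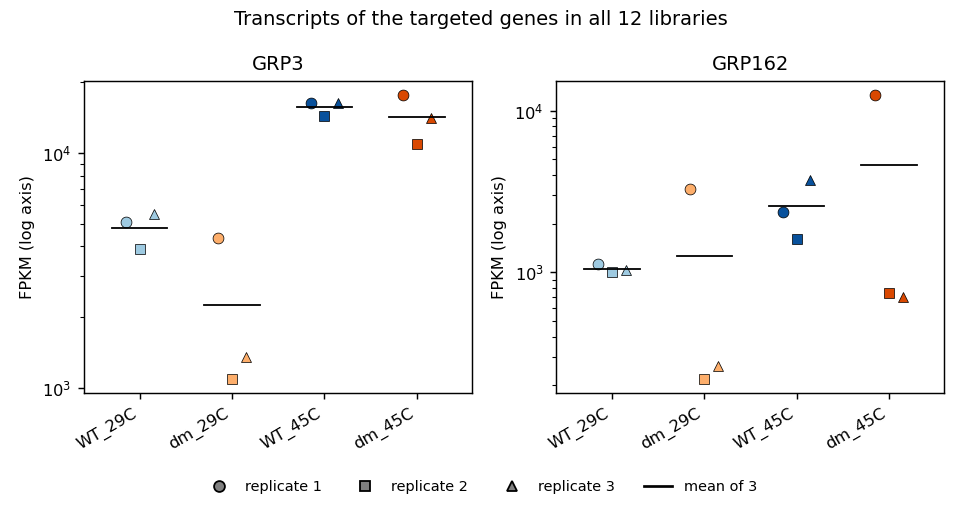
FPKM of GRP3 and GRP162 on a log axis in the 3 libraries of each of the 4 groups, with 1 marker shape per replicate number and a line at the mean of 3. The GRP162 points of dm_45C spread from 699 to 12466, on both sides of the WT_45C points, while GRP3 overlaps between the heat groups.

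After heat, 4 of 20305 tested loci passed at an adjusted p under 0.05 (limma), 3 higher and 1 lower in dm_45C, which is 0.0197% of the loci in all, 0.0148% higher and 0.00492% lower. At an unadjusted p under 0.05 there were 1618 loci (7.97%), 975 higher and 643 lower, a split that turned to 869 and 1170 with median-of-ratios scaling, 863 and 1023 with quantile normalization and 1091 and 1198 with library weights. None of the 4 loci that passed is in a gene list used here, and the sources used here give these 4 no name or role, so they are printed by locus ID. At 29 °C the same contrast called 49 loci (0.241%), 40 higher (0.197%) and 9 lower (0.0443%). The difference between the contrasts at both temperatures was called for 3 loci (0.0148%) and reached an unadjusted p under 0.05 at 1039 (5.12%).

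LOC_Os03g43100, on chromosome 3, was nearly silent in the heated wild type at 0, 0.05 and 0.27 FPKM, and reached 25.2, 42.1 and 38.8 in dm_45C. Every mutant library is far above every wild type library, and the same holds at 29 °C, where WT_29C read 0 to 0.25 and dm_29C 22.1 to 30.3. The difference was 5.01 ± 0.229 at 45 °C (limma adjusted p = 4.2e-07) and 4.60 at 29 °C (adjusted p = 1.21e-06). Between the temperatures it moved by 0.41 ± 0.323, which did not pass (adjusted p = 0.974).

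LOC_Os03g60550, also on chromosome 3, measured 4.25, 3.71 and 3.72 FPKM in WT_45C and 15.9, 12.6 and 12.8 in dm_45C, a ratio of means of 3.54. The groups do not overlap, and they do not at 29 °C either, with 3.85 to 7.07 in WT_29C and 11.9 to 15.1 in dm_29C. The difference was 1.59 ± 0.206 (limma adjusted p = 0.0267) after heat and 1.20 at 29 °C (adjusted p = 0.0378).

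LOC_Os02g06630 is a locus of low level, at 0.03, 0.09 and 0.22 FPKM in WT_45C and 3.68, 2.73 and 2.29 in dm_45C. It was named because it is 1 of only 4 loci to pass, after its values had been seen. All mutant libraries lie above all wild type libraries, and at 29 °C as well, where dm_29C held 0.68 to 1.09. The difference was 1.80 ± 0.22 (limma adjusted p = 0.0226), and at 29 °C it was 0.87 and did not pass (adjusted p = 0.19).

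LOC_Os04g09860 is the only locus that passed as lower, at 28.5, 11.0 and 17.0 FPKM in WT_45C and 0.92, 1.28 and 2.73 in dm_45C. The ratio of the wild type mean to the mutant mean was 11.46, and no library of one group reaches the other. At 29 °C both genotypes were low, at 1.05 to 2.06 in WT_29C and 0 to 1.35 in dm_29C, so the heated wild type libraries alone are high. The difference was -2.87 ± 0.388 after heat (limma adjusted p = 0.0319), and its change from 29 °C was -2.26 ± 0.549 (adjusted p = 0.569), which did not pass.

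Deviations of same-numbered heat libraries correlated weakly (r = 0.11, 0.29 and 0.14), against r from -0.19 to 0.06 for unlike numbers. The fit with the replicate number as a block therefore stands beside these calls. With that block LOC_Os03g43100 alone passed, and the other 3 loci each had an adjusted p of 0.0863. LOC_Os04g09860 passed in 7 of 18 alternative settings, LOC_Os03g60550 in 11 of 18, LOC_Os02g06630 in 9 of 17 and LOC_Os03g43100 in 18 of 18. Leaving out dm_45C replicate 3 raised the count from 4 to 45, with 31 higher and 14 lower. A fit of the 6 heat libraries alone called 7 loci, of which LOC_Os03g43100 is the 1 shared with the 4. In the fit of all 12 libraries, the count without each other heat library ran from 1 (WT_45C replicate 1) to 11 (dm_45C replicate 2). It was 2 and 3 without WT_45C replicates 3 and 2, and 6 without dm_45C replicate 1.

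**Figure D2:**
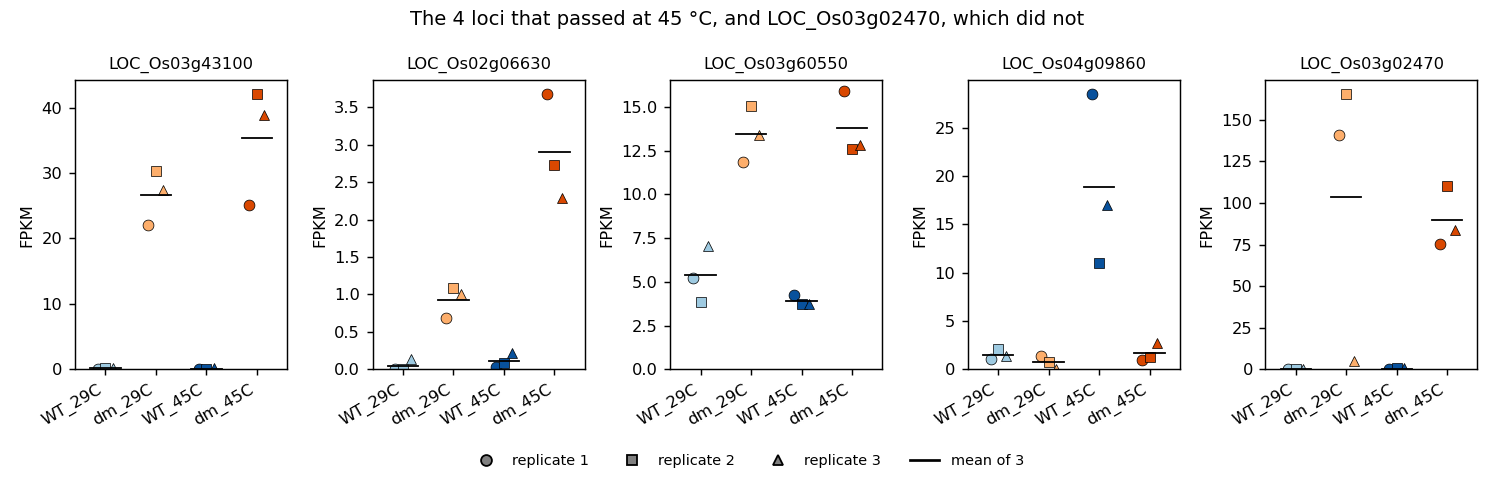
FPKM of the 4 loci that passed at 45 °C and of LOC_Os03g02470, in the 3 libraries of each group, with 1 marker shape per replicate and a line at the mean of 3. LOC_Os03g43100 is high in dm_29C and dm_45C and near 0 in both wild type groups, while LOC_Os04g09860 is high in WT_45C only, from 11.0 to 28.5.

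A wider but untested view is the set of loci that are off in a group and on in the other. There were 77 loci under 1 FPKM in every WT_45C library and at 1 or more in every dm_45C library, and 27 of the reverse kind. Both counts use the deposited FPKM alone, in which WT_45C replicate 3 was the lowest heat library at 35.4% of loci. Their dependence on scaling was not tested. Of the 77, 5 reached 5 FPKM or more in every dm_45C library, and of the 27 reverse loci none (0) reached 5 in every WT_45C library. The 5 were LOC_Os03g43100, LOC_Os03g02470, LOC_Os03g18779, LOC_Os01g56800 and LOC_Os05g50390, named after their values had been seen.

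LOC_Os03g02470 measured 0.13, 0.49 and 0.5 FPKM in WT_45C and 75.1, 110.2 and 83.8 in dm_45C. It has the highest difference of these 5, 6.04 ± 0.905, but it did not pass in the fit of all 12 libraries (limma adjusted p = 0.0677). It passed with only the heat libraries (adjusted p = 0.00026), with a pseudocount of 0.1 (0.0362) and without dm_45C replicate 3 (0.0439), against 0.00026 to 0.229 over all 18 alternatives. In dm_29C it read 140.9, 165.6 and 4.87, so replicate 3 there is far below the other 2. LOC_Os03g18779 shows the same low replicate, with 63.0, 67.7 and 0.53 FPKM in dm_29C against 8.6, 31.2 and 27.3 in dm_45C and 0.2 or less in all wild type libraries (difference after heat 4.21, adjusted p = 0.381).

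LOC_Os05g50390 was listed at 0 in all 6 wild type libraries, and read 8.88, 9.02 and 9.9 in dm_45C. In dm_29C it read 0, 8.16 and 9.01, so replicate 1 at 29 °C is without it (difference after heat 3.36, adjusted p = 0.196). LOC_Os01g56800 measured 0.76, 0.62 and 0.45 in WT_45C and 12.5, 13.2 and 14.3 in dm_45C, but at 29 °C both genotypes hold high and low libraries, from 0.45 to 12.6 in WT_29C and from 0.84 to 12.2 in dm_29C.

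Groups did not overlap at 45 °C for 2696 loci (13.3%), 1891 higher (9.31%) and 805 lower (3.96%) in dm_45C. Overlap was read on the deposited FPKM alone. Whether this split holds under other scalings was not tested, and the split at an unadjusted p turned with scaling. At 29 °C, 8.66% of the loci were higher and 5.42% lower without overlap. At both temperatures, 245 of the 20305 tested loci were higher in all mutant libraries and 107 lower, while 37 and 27 did not overlap but turned direction. With the shares above, some loci would coincide without any link between the temperatures. That number was not computed, so these counts are descriptions. With a difference of 1 or more at both temperatures as well, 27 loci remained, 19 higher and 8 lower in the mutant, and 6 of the 27 lie on chromosome 3, which holds 2662 of the tested loci. Across all loci the log2 differences at 45 °C and 29 °C, which share no library, had a Pearson r of 0.29, given as a description since loci are not independent. Of the 49 loci called at 29 °C, 43 had the same sign after heat. The share with the same sign over all loci is not given here, so the 43 are a description. The median difference over all loci was positive at both temperatures, 0.06 at 45 °C and 0.02 at 29 °C.

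Among the 8 loci lower in the mutant by 1 or more at both temperatures, LOC_Os05g11320 had the highest FPKM. It measured 2291, 3446 and 692 FPKM in WT_45C against 631, 254 and 262 in dm_45C, and 246, 254 and 1408 in WT_29C against 40.6, 17.1 and 26.1 in dm_29C. All mutant libraries lie below all wild type libraries of the same temperature, although the wild type libraries themselves vary widely. It did not pass after heat (difference -2.34, limma adjusted p = 0.488) and passed at 29 °C (difference -4.03, adjusted p = 0.0405). LOC_Os12g21784 is a steadier case, at 10.5, 10.8 and 11.46 FPKM in WT_45C and 4.71, 5.55 and 4.21 in dm_45C, with a difference of -1.04 after heat (adjusted p = 0.456) and -1.95 at 29 °C (adjusted p = 0.0168).

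Genes of known pathways were read through 22 lists, of which 284 loci were tested. In limma, 0 listed loci passed (smallest adjusted p 0.474). At an unadjusted p under 0.05 there were 17 higher (5.99%, against 4.8% of all loci) and 13 lower (4.58%, against 3.17%), and 18 were higher without overlap (6.34%, against 9.31%) and 7 lower (2.46%, against 3.96%). The median difference of the listed loci was 0.05, beside 0.06 over all loci. The differences of listed genes at 45 °C that follow therefore did not pass, and their values are descriptions.

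Chaperones and their regulators were the first group of interest. None (0) of the 15 small heat shock protein loci reached an unadjusted p under 0.05, and their median difference was 0.05. Their summed FPKM was 3662, 4448 and 1618 in WT_45C and 2591, 3027 and 4820 in dm_45C, so each genotype holds a low and a high library. HSP18.0 measured 548, 515 and 341 in WT_45C and 661, 365 and 841 in dm_45C, with overlapping groups (difference 0.36 ± 0.296). HSP21.9 read 8.19, 14.0 and 1.86 against 0.65, 5.77 and 3.81, and HSP22.3 read 3.63, 3.13 and 1.36 against 2.2, 12.8 and 3.31. HSP22.3 stood higher at 29 °C, at 10.4 to 18.0, than in all heat libraries but dm_45C replicate 2.

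Of 11 HSP70, HSP90 and HSP100 loci, 0 reached an unadjusted p under 0.05, with a median of -0.03. HSP81-2, an HSP90 and the most abundant of those named, measured 728, 720 and 594 in WT_45C and 837, 477 and 737 in dm_45C, a difference of -0.03 ± 0.243. HSP81-1, another HSP90, was at 7.56, 7.71 and 7.96 in WT_45C and 62.3, 7.58 and 12.4 in dm_45C, so dm_45C replicate 1 alone is far above the rest. CLPB-M, an HSP100 disaggregase, read 25.3, 24.2 and 16.64 against 14.8, 13.1 and 20.9.

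Heat stress transcription factors bind heat shock elements in the promoters of chaperone genes. Of 22 loci in this list, 2 were higher and 1 lower at an unadjusted p under 0.05, and the median was 0.10. HSFA2D measured 11.3, 16.1 and 7.82 in WT_45C and 4.28, 9.95 and 4.69 in dm_45C, mostly lower but with overlap (difference -0.83 ± 0.286, adjusted p = 0.524). HSFA3 measured 9.02, 6.6 and 4.42 against 8.47, 10.1 and 33.6, with dm_45C replicate 3 well above all others (1.05 ± 0.406, adjusted p = 0.57). HSFB2C, the most abundant named factor, read 84.2, 99.2 and 69.4 against 54.7, 68.1 and 77.5. Of 6 rice thermotolerance loci, 1 was higher at an unadjusted p, and TOGR1, a nucleolar RNA helicase known to support growth at high temperature, overlapped at 20.4, 14.6 and 12.4 against 14.4, 12.6 and 17.5.

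Endoplasmic reticulum chaperones had 1 of 8 loci lower and 0 higher at an unadjusted p under 0.05, with a median of -0.13. BIP1, the HSP70 of the endoplasmic reticulum, measured 65.7, 52.7 and 100.5 in WT_45C and 34.1, 55.3 and 52.1 in dm_45C (difference -0.60 ± 0.289, adjusted p = 0.647). PDIL1-1, a protein disulfide isomerase, and BZIP39, a membrane-bound sensor of unfolded proteins, overlapped, with differences of -0.14 and 0.21.

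The clock list held the most loci with low unadjusted p: 5 of 19 were higher and 1 lower, with a median of 0.18 and adjusted p of 0.474 or more. LHY, a morning-expressed repressor, measured 70.1, 158.5 and 38.8 FPKM in WT_45C and 9.11, 66.0 and 21.8 in dm_45C. Within each replicate number the mutant library is lower, but the groups overlap (difference -1.62 ± 0.586, adjusted p = 0.552). PRR1, the rice relative of the evening repressor TOC1 of Arabidopsis, measured 24.9, 14.4 and 13.4 against 49.8, 23.24 and 42.4.

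PRR1 was above its same-numbered wild type library in all pairs, though dm_45C replicate 2 lies below WT_45C replicate 1 (difference 1.07 ± 0.304, adjusted p = 0.474). GI, which acts in the evening and in flowering, measured 6.64, 17.1 and 3.03 against 22.6, 12.6 and 26.4, with replicate 2 reversed in order (1.32 ± 0.472, adjusted p = 0.544). At 29 °C the differences of LHY, PRR1 and GI were 0.23, -0.02 and -0.20. Their change between the temperatures did not pass (limma adjusted p = 0.961, 0.932 and 0.952). No source used here gives the hour of sampling, and its part in these values was not tested.

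**Figure D3:**
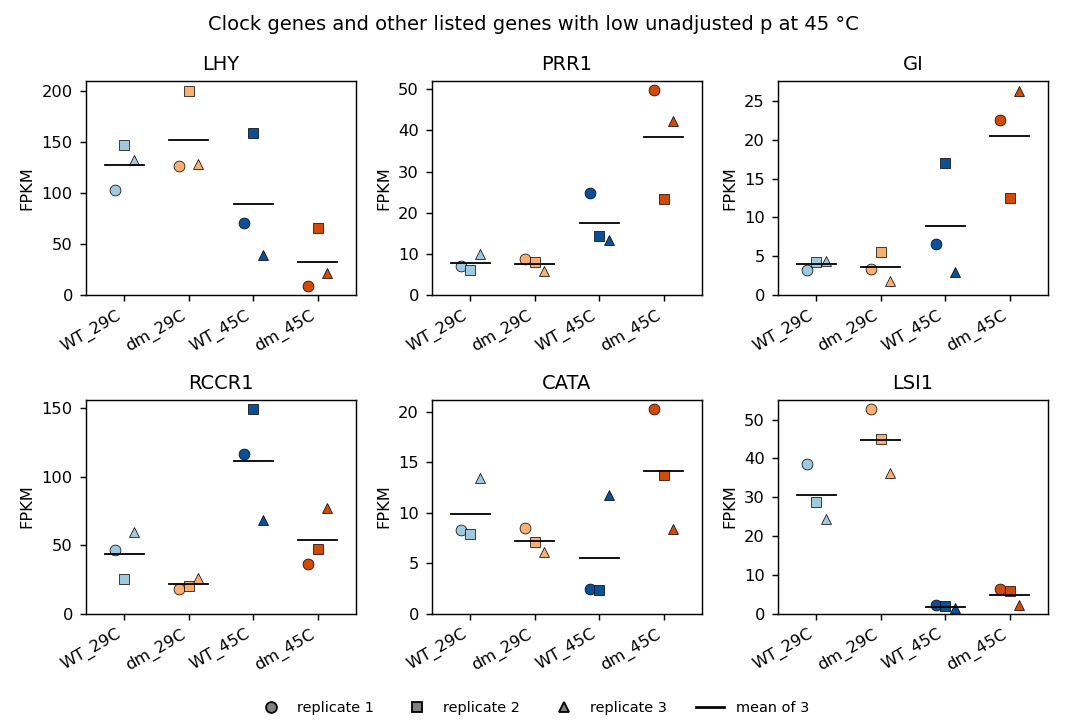
FPKM of the clock genes LHY, PRR1 and GI and of RCCR1, CATA and LSI1 in the 3 libraries of each of the 4 groups, with 1 marker shape per replicate number and a line at the mean of 3. In dm_45C the mean of LHY is lower and those of PRR1 and GI are higher than in WT_45C, while single libraries of the groups overlap in all 6 panels.

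Abscisic acid and dehydration genes had 3 of 27 loci higher and 0 lower at an unadjusted p under 0.05, with a median of 0.22. SAPK2, a kinase of abscisic acid signalling, measured 17.5, 17.2 and 12.9 in WT_45C and 21.0, 26.72 and 33.1 in dm_45C without overlap (difference 0.72 ± 0.231, adjusted p = 0.492). DREB1A, a cold- and dehydration-responsive factor, measured 1.23, 1.23 and 1.33 against 3.75, 1.57 and 7.94, and the dehydrin RAB16C 9.85, 9.1 and 7.68 against 16.2, 27.1 and 13.1. Both are without overlap, at differences of 1.08 and 0.95. LEA3, a protective protein of drying seeds and the most abundant of those named, had the lower mean in dm_45C but overlapped, at 135, 202 and 41.1 against 19.5, 58.2 and 133.

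In chlorophyll breakdown, 7 of 8 loci had a negative difference, 1 of them at an unadjusted p under 0.05. The share of all loci with a negative difference is not given here, so this count is a description. The median was -0.34 after heat and -0.50 at 29 °C, beside 0.06 and 0.02 over all loci. RCCR1, which reduces the red chlorophyll catabolite, measured 116, 150 and 68.6 in WT_45C and 36.1, 47.3 and 76.8 in dm_45C, so that replicate 3 of the mutant overlaps (difference -1.05 ± 0.357, adjusted p = 0.52). At 29 °C its difference was -0.93. NYC1, a chlorophyll b reductase and the exception in sign, read 136, 99.7 and 93.9 against 139, 108 and 181.

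Chlorophyll synthesis had 1 of 9 loci higher at an unadjusted p under 0.05, with a median of 0.16. GSA, an enzyme that makes the precursor aminolevulinate, measured 67.5, 58.4 and 58.7 against 77.3, 74.9 and 91.0, without overlap (0.39 ± 0.153, adjusted p = 0.572). CHLH, a subunit of magnesium chelatase, overlapped at 4.22, 4.38 and 1.86 against 2.42, 5.88 and 5.38.

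Among 22 antenna and photosystem loci, 2 were higher and 0 lower at an unadjusted p under 0.05, and the median was 0.17. Their summed FPKM was 4588, 5244 and 4801 in WT_45C and 4076, 7872 and 5050 in dm_45C, with dm_45C replicate 2 high. CAB2R, an antenna protein, measured 4.33, 4.47 and 3.81 against 7.6, 9.94 and 4.81, without overlap (difference 0.65 ± 0.588, adjusted p = 0.817). Plastocyanin PETE and the photosystem I subunit PSAH both overlapped, with differences of -0.09 and 0.01. Replicate 2 of dm_45C was also the heat library nearest to the 29 °C libraries of its genotype, with a mean r of 0.871 against 0.797 for replicate 3, and its part in the antenna values was not tested.

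For Rubisco and nitrogen assimilation the median was -0.02 over 12 loci, and 0 reached an unadjusted p under 0.05. RCA, the activase of Rubisco, measured 987, 1643 and 1054 in WT_45C and 339, 1558 and 918 in dm_45C, with mutant replicate 1 apart. The nitrate reductase NIA1 read 7.13, 16.7 and 9.04 against 0, 8.73 and 1.53 (difference -1.96 ± 1.15), and GS2, plastid glutamine synthetase, 694, 863 and 678 against 342, 748 and 557. The sugar list had 1 of 7 loci lower, the alpha-amylase RAMY3B, at 3.63, 3.22 and 3.25 against 1.68, 2.08 and 1.66 without overlap (-0.64 ± 0.242, adjusted p = 0.562). The sucrose transporter SUT1 overlapped (-0.18).

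Scavengers of reactive oxygen had 1 of 17 loci higher and 3 lower at an unadjusted p under 0.05, with a median of -0.08. The catalase CATA measured 2.45, 2.36 and 11.7 in WT_45C and 20.3, 13.7 and 8.37 in dm_45C, with WT_45C replicate 3 among the mutant values (1.44 ± 0.455, adjusted p = 0.488). SODCC1, a cytosolic superoxide dismutase, measured 272, 329 and 283 against 138, 288 and 199 (-0.56 ± 0.244, adjusted p = 0.612). Its relative SODCC2 was the most abundant, at 1309 to 1734 in WT_45C and 1118 to 1868 in dm_45C. APX7, an ascorbate peroxidase, had a difference of -0.54.

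Defence loci had 0 of 20 higher and 1 lower at an unadjusted p, with a median of -0.02. PBZ1, a pathogenesis-related protein, ranged from 3.7 to 161 FPKM within WT_45C, and WRKY76 from 1.38 to 32.7, each with replicate 3 high, against 6.87 to 74.5 and 10.6 to 53.3 in dm_45C. The differences were 0.53 ± 1.21 and 1.76 ± 1.07, and that of WRKY24 was -0.87. Diterpenoid phytoalexin enzymes, a list that earlier work on these data picked once some members were known to differ, gave 0 of 6 at an unadjusted p. CYP71Z6 was at 6.56, 6.63 and 2.94 against 6.13, 14.8 and 6.11 after heat (0.61), with dm_45C replicate 2 alone above WT_45C. At 29 °C its difference was 1.91, which passed there (limma adjusted p = 0.0482). CYP99A2 read 1.81, 0.03 and 12.4 against 0, 0 and 1.76, with WT_45C replicate 3 alone high (-1.27, and -0.28 without that library).

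Of 23 jasmonate loci, 18 had a positive difference and 0 reached an unadjusted p under 0.05, with a median of 0.18. The median over all loci was also positive, at 0.06, and 0.005 with median-of-ratios scaling. The share of all loci with a positive difference is not given here. COI2, a jasmonate receptor, measured 27.0, 21.8 and 20.4 against 31.2, 27.0 and 27.3, higher without overlap (0.30 ± 0.165, adjusted p = 0.688). The repressors TIFY6B and TIFY3 overlapped, with differences of 0.32 and -0.12.

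Other hormone genes had 1 of 24 loci higher and 2 lower at an unadjusted p. EIN2, a central protein of ethylene signalling, measured 9.76, 9.46 and 9.61 in WT_45C and 4.85, 5.92 and 7.96 in dm_45C, a narrow wild type group above all mutant libraries (-0.57 ± 0.2, adjusted p = 0.534). RR2, a cytokinin response regulator, read 0.63, 1.33 and 0.64 against 1.1, 8.49 and 1.31, with replicate 2 high. ACS2, an ethylene synthesis enzyme, had a difference of -0.70, and EIL1, a factor downstream of EIN2, one of 0.12.

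Aquaporins and iron genes had 0 of 17 loci higher and 2 lower, with a median of -0.17. PIP1-1 measured 713, 934 and 419 in WT_45C and 250, 618 and 333 in dm_45C, lower within each replicate number but overlapping (-0.81 ± 0.36, adjusted p = 0.616). PIP2-6 was lower without overlap, at 97.8 to 105 against 64.1 to 91.3 (-0.35), and TIP1-2, of the vacuole membrane, overlapped (-0.16). Of 5 cell cycle loci, 0 reached an unadjusted p; MCM2, a subunit of the replicative helicase, and CDKA-1, a cell cycle kinase, differed by 0.16 and 0.12.

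**Figure D4:**
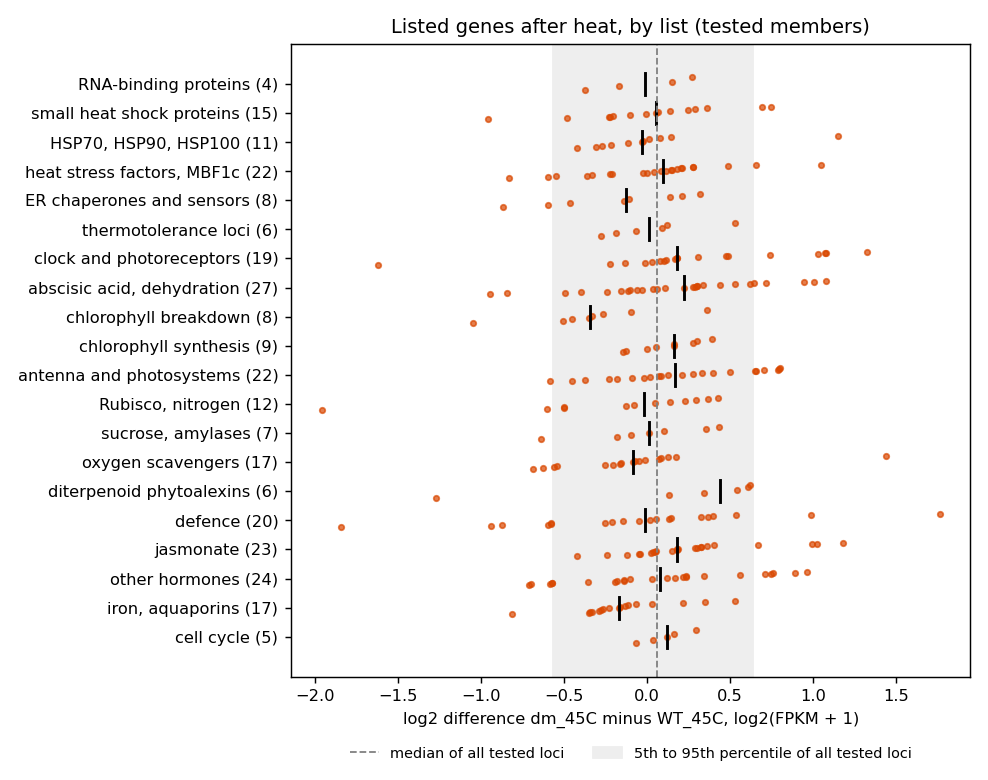
Differences dm_45C minus WT_45C in log2(FPKM + 1) of the tested members of each list with 3 or more of them (orange points, number in brackets), with the list median as a black bar, the median of all loci (0.06) as a dashed line and their 5th to 95th percentile (-0.56 to 0.64) in grey. List medians run from -0.34 for chlorophyll breakdown to 0.44 for phytoalexin enzymes, and 0 of the points passed. The phytoalexin median rests on 6 tested loci of 17 listed, and 0 of the 6 were higher in dm_45C without overlap. CYP71Z6, the most abundant named member, was above WT_45C in dm_45C replicate 2 alone.

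Root and seed storage markers were low in all heat libraries. Of 5 root markers, 3 were at 0 in all 6 libraries, and the summed FPKM was 1.4 to 2.2 in WT_45C and 2.6 to 6.5 in dm_45C. Nearly all of it was LSI1, a silicon channel of root cells, at 2.14, 1.84 and 1.36 against 6.45, 5.93 and 2.13 (difference 0.98 ± 0.305, adjusted p = 0.488), which at 29 °C stood at 24.4 to 52.6. LSI1 passed without dm_45C replicate 3 (adjusted p = 0.044). Of 7 seed storage markers, 2 were at 0, and the sums were 2.3 to 5.0 and 4.1 to 6.2, mostly GLUA2, a glutelin. The part of root content in the values above was not tested.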

How the data were processed

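Poly(A) RNA of 12 libraries was sequenced with a strand mark and molecular identifiers, per the labels' protocols. The deposited values are FPKM, per the file headers, for 42004 loci. The submitters' processing notes list StringTie 1.3.4d, HISAT2 2.0.4, cutadapt 1.9, edgeR, DESeq2 and UMI-tools; which of these made the values, and from which genome build, was not stated in the sources used here. No read counts can be recovered, so the depth is unknown, and counting intervals are left out. Close relatives such as GRP3 and GRP162 may share reads.

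The 20305 loci that reached 1 FPKM in 3 or more libraries were fitted on log2(FPKM + 1) with limma 3.58.1 (R 4.3.3), 4 group means and an intensity trend, and p-values were adjusted by Benjamini-Hochberg over all of them. The added 1 understates changes of low loci. The fit was tested on simulated data. Figures used Python 3.11.15, pandas 2.3.3, numpy 2.4.6 and matplotlib 3.10.9. Deviations of same-numbered heat libraries of the genotypes correlated weakly (r = 0.11, 0.29 and 0.14), against r from -0.19 to 0.06 for unlike numbers. Whether same numbers match better than other pairings was not tested. The titles also number the repeats, so the numbers were taken to pair them in the replicate block. The main fit and the exact permutation tests do not use this pairing. Alternatives were 18 other settings: pseudocounts, filters, scalings, a replicate block, weights, and libraries left out.

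The members and gene lists were chosen with earlier results of these data known. Gene names were entered by hand from published assignments, and of 341 pairs of name and locus 222 names are in the RefSeq gene table (assembly ASM3414082v1) on the same chromosome, 7 on another and 112 absent; only the first are printed, besides GRP3 and GRP162. For 3 small heat shock proteins the name was corrected to the RefSeq synonym. Named are GRP3 and GRP162; the 10 listed genes with the highest and the 10 with the lowest moderated t; per list, the 2 members with the smallest p and the most abundant; and, outside the lists, up to 2 passing loci in each direction with a mean of 10 FPKM or more. Other locus IDs were chosen after their values were seen.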

Additional observations from a re-analysis of the deposited data

Results flagged for a closer look

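At 3 loci, none in a list and none with a role in the sources used here, the genotype difference itself differed between temperatures in the test of that difference (limma, adjusted p = 0.0446 for each in the fit without a replicate block). LOC_Os04g03050 measured 10.5, 15.4 and 10.02 FPKM in dm_29C against 0.31 to 1.4 in WT_29C, and after heat it lay at 0.09 to 0.76 in dm_45C and 0.37 to 1.08 in WT_45C, so that its difference moved by -3.20 ± 0.422 on the log2 scale. LOC_Os10g20890 measured 11.2, 9.0 and 4.99 in dm_29C against 0.11 or less in WT_29C, with 0.96 to 1.19 in dm_45C and 0.41 to 0.94 in WT_45C, a move of -2.74 ± 0.373. LOC_Os02g36830 was listed at 0 in all wild type libraries, read 3.77, 3.33 and 3.57 in dm_29C, and lay at 0, 0 and 0.06 in dm_45C, a move of -2.16 ± 0.275. All 3 are high in the mutant at 29 °C and near the wild type after heat. With the replicate block LOC_Os04g03050 alone passed (adjusted p = 0.00869), and the other 2 had 0.142. No call held with TPM rescaling or a pseudocount of 0.1, and of the 6 fits that leave out a heat library 1 kept a call, that of LOC_Os04g03050 without dm_45C replicate 2 (0.0164).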

How the results depend on the processing

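The count of loci higher in dm_45C (3) became 5 with no filter, 7 with only the heat libraries, 1 with the replicate block and 8 without both dm replicate 1 libraries, and ran from 1 to 31 with one library left out, the highest without dm_45C replicate 3. The count lower (1) became 0 with a pseudocount of 0.1, no filter, a filter of 5 FPKM, TPM rescaling, only the heat libraries and the replicate block, 2 with median-of-ratios scaling, library weights and without both dm replicate 1 libraries, and 3 with a pseudocount of 5, from 0 to 14 over single left-out libraries. Of loci with an unadjusted p under 0.05, 60.3% were higher, against 42.6% with median-of-ratios scaling, 45.8% with quantile normalization and 47.7% with library weights. At 29 °C, 40 higher and 9 lower became 19 and 5 with a pseudocount of 0.1 and 10 and 3 with the filter of 5, and 21 to 53 and 5 to 11 over left-out heat libraries; no 29 °C library was left out alone, so how these counts depend on single 29 °C libraries was not tested. For the difference between contrasts, 0 higher became 1 with no filter, and 3 lower became 0 (pseudocount 0.1, filter of 5, TPM, without both dm replicate 1 libraries), 1 (replicate block) or 7 (pseudocount 5), with 0 to 2 and 0 to 3 over left-out libraries. The mean r between heat groups (0.941) became 0.914, 0.963 and 0.919 with a pseudocount of 0.1, no filter and the filter of 5. The Rubisco and nitrogen median became 0.28 without both dm replicate 1 libraries and -0.50 with RefSeq-held names alone, and the root marker median 0.10 with no filter. Listed loci called ran from 0 to 1.

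With one library left out, the Rubisco and nitrogen median ran from -0.14 to 0.28. GRP3 ran from -0.34 to 0.006 and GRP162 from -1.74 to 0.34, positive without dm_45C replicate 2 for both and without replicate 3 for GRP162. Others that changed sign were HSP81-2 (-0.19 to 0.21), PDIL1-1 (-0.33 to 0.04), TOGR1 (-0.22 to 0.12), PETE (-0.45 to 0.13), PSAH (-0.23 to 0.19), RCA (-1.10 to 0.0), SUT1 (-0.42 to 0.10), PBZ1 (-0.48 to 2.07), TIFY3 (-0.33 to 0.15), EIL1 (-0.025 to 0.25), TIP1-2 (-0.46 to 0.12) and MCM2 (-0.10 to 0.45). Without both dm replicate 1 libraries PETE, RCA, TIFY3 and TIP1-2 were at 0.13, 0.0, 0.15 and 0.12, PSAH was at -0.051 with median-of-ratios scaling and -0.062 with library weights, and MCM2 at -0.19 with the weights. The replicate block changed no other call at 45 °C of a named gene than those given above with the 4 loci. The cause of these changes was not tested. The RefSeq-name setting was added after seeing the data.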
